A study of Mus musculus with 17 samples.

Results

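The comparison described here is between the lungs of NOS2-/- mice and of wild-type mice taken 22 h after lipopolysaccharide (LPS, endotoxin). Its members are the 3 arrays labelled as NOS2 knockout at 22 h and the 3 arrays labelled as LPS at 22 h in wild-type mice, 6 of the 17 arrays of the series, and they were chosen by these labels and not by any measured value. All mice were male and received LPS of Escherichia coli O111:B4 intravenously at 20 mg/kg or saline; the wild-type mice were C57BL/6J, and neither the strain background nor the allele of the NOS2-/- mice is given in the sources used here. RNA came from the whole lung, each mouse had its own Affymetrix MOE430A array, and log2 expression values were compared for 22626 probe sets (short sets of oligonucleotides that each report on a transcript). The other arrays, used for the shared estimate of spread and for reference levels, came from saline-treated mice at 22 h (4 wild-type and 1 NOS2-/-) and from mice 7 h after LPS (3 of each genotype).

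NOS2, the inducible nitric oxide synthase, makes nitric oxide from arginine, and LPS is known to induce it through NF-kappaB and interferon signalling in macrophages, epithelium and other cells. Nitric oxide relaxes vascular smooth muscle through cyclic GMP. LPS is recognised by TLR4, which leads to chemokines and cytokines and to type I interferon, and interferons in turn switch on a large set of antiviral and chemokine genes. The study asked which genes differ between the genotypes in endotoxemic lungs, because the blunting of hypoxic pulmonary vasoconstriction by LPS is known to need NOS2.

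The wild-type array of replicate 2 stood apart from its group. Counts, list calls and most gene values of the 22 h comparison are therefore given below with all arrays and without this array. Genes called below kept their call without it unless stated. Its log2 values correlated at 0.949 and 0.955 with wild-type replicates 3 and 1, which correlated at 0.996 with each other, and every pair of NOS2-/- LPS 22 h arrays correlated at 0.998. Its values spread less (SD 1.60 against 1.74 for replicates 1 and 3) around a median of 8.46, where all other arrays lay between 8.51 and 8.55. The difference of replicate 2 from the mean of replicates 1 and 3 followed the level of the probe set: with probe sets divided into 4 equal parts by that mean, its median was 0.16 in the lowest part and -0.34 in the highest, where 89.2% of probe sets were lower on replicate 2. The same mean set the parts and entered the difference, so some of this trend can come from the division itself. The signal for 18S ribosomal RNA was 7.67 on it and 6.39 and 6.35 on replicates 1 and 3, and the NOS2-/- LPS 22 h arrays, at 7.05, 6.99 and 6.77, were also above replicates 1 and 3. The 3'-to-5' difference for Gapdh on wild-type replicate 2 was 0.30, inside the range of the other arrays (0.04 to 0.31). The part of RNA quality in these values and in the genotype differences was not tested.

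With all arrays, 2180 probe sets were higher in NOS2-/- than in wild-type lungs (9.63% of those tested) and 1540 were lower (6.81%) at an adjusted p under 0.05 (limma, Benjamini-Hochberg over all probe sets). Without wild-type replicate 2, 2535 were higher (11.2%) and 3485 lower (15.4%). Of the calls with all arrays, 1906 higher (8.42%) and 1468 lower (6.49%) were also made without replicate 2, no call changed its direction, and these shared calls correspond to 1110 genes higher (8.96% of 12393 genes) and 934 genes lower (7.54%). Leaving out replicate 2 added 2017 lower calls and 629 higher ones, and the share of calls that were higher went from 58.6% to 42.1%. The differences were mostly small: the median size among called probe sets was 0.479 on the log2 scale, and 195 higher (0.862%) and 78 lower calls (0.345%) reached 2-fold. Without replicate 2 these were 135 (0.597%) and 150 (0.663%). The p-values measure the spread between separate mice with 1 array each.

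**Figure D1:**
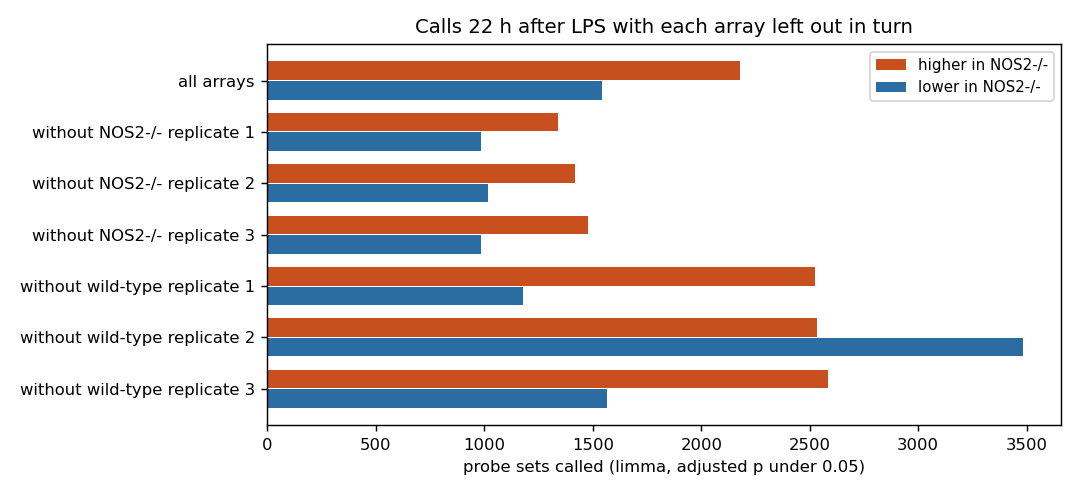
Number of probe sets called higher or lower in NOS2-/- than in wild-type lungs 22 h after LPS (limma, adjusted p under 0.05), with all arrays and with each of the 6 arrays left out in turn. The lower calls rise from 1540 to 3485 without wild-type replicate 2, and they are 984 to 1565 without any one of the others.

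The Nos2 probe set itself was not lower in the arrays labelled NOS2-/-. Its log2 values were 9.20, 9.25 and 8.99 in NOS2-/- and 8.80, 8.19 and 8.48 in wild-type lungs 22 h after LPS, against 8.47, 8.17, 7.75 and 8.31 in wild-type saline lungs and 8.29 in the NOS2-/- saline lung. The NOS2-/- arrays lay above all wild-type arrays by 0.66 ± 0.16 (log2 difference ± SE, 1.58-fold, limma adjusted p = 0.0123; 0.50 and 0.0195 without wild-type replicate 2), and this call was lost without NOS2-/- replicate 2. At 7 h the genotypes lay close together (8.94 ± 0.08, SD, n = 3, in NOS2-/- lungs; log2 difference from wild-type lungs -0.06, limma adjusted p = 0.843). Neither the deleted part of the gene nor the position of the probes in it is given in the sources used here, so these values do not check the genotype, and the groups below rest on the labels.

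Of the nitric oxide, arginine and polyamine list, 6 of 27 measured genes were lower and 1, Nos2, was higher (9 and 1 without wild-type replicate 2), where 7.84% and 10.2% of all genes were called lower and higher with all arrays (16.6% and 11.9% without replicate 2). These shares are the background for every list count below. The lower count was 3 without NOS2-/- replicate 1, NOS2-/- replicate 2 or wild-type replicate 1. The list had a median difference of -0.08 (-0.13 without replicate 2). Nos3, the endothelial nitric oxide synthase, was 8.85, 8.67 and 8.76 in NOS2-/- and 10.03, 10.03 and 9.32 in wild-type lungs, with no overlap. It was 2.05-fold lower in NOS2-/- lungs (log2 difference -1.03 ± 0.16, adjusted p = 0.000472; -0.91 without replicate 2), and the NOS2-/- arrays were close to the wild-type saline mean of 8.72. Nosip, whose product binds NOS3 and changes its place in the cell, was 0.78 lower on the log2 scale by the higher of its probe sets (log2 difference -0.78, adjusted p = 0.000343, -0.95 without replicate 2) and -0.41 by the other. Gatm, the first enzyme of creatine synthesis from arginine, was also lower (-0.39, adjusted p = 0.0204, -0.30 without replicate 2). Odc1, the rate-limiting enzyme of polyamine synthesis, was 12.97, 12.71 and 12.70 in NOS2-/- and 12.76, 12.29 and 12.56 in wild-type lungs, and its difference of 0.25 did not pass the test (adjusted p = 0.189, 0.13 without replicate 2). Nos1, the neuronal synthase, did not pass it either, and its difference was -0.34 with all arrays and 0.12 without replicate 2.

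The leading differences were taken as the genes with the largest log2 difference among those called with and without wild-type replicate 2 and without overlap between the groups (8.91% of all genes on the higher side and 7.16% on the lower). Among the 15 higher ones were the interferon-induced genes Mx1, Ifit2, Oasl1 and Cxcl10, the chemokine Cxcl1, the adhesion molecule Vcam1, the vasodilator peptide Adm, matrix and stromal genes (Ogn, Mfap4, Itga8), epithelial genes (Tspan8, Pdpn), the antimicrobial peptide Camp, and Car3 and Adipoq, which fat cells express. The 14 lower ones were Neat1, Erdr1, Mat1a, Notch4, Procr, Il33, Kcnj8, Galnt2, Orm2, Cldn2, Igsf6, Cebpg, Crk and Porcn. Their values follow by role. Since the lung was measured as a whole, fewer cells of a type and less RNA per cell cannot be told apart in any of them.

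**Figure D2:**
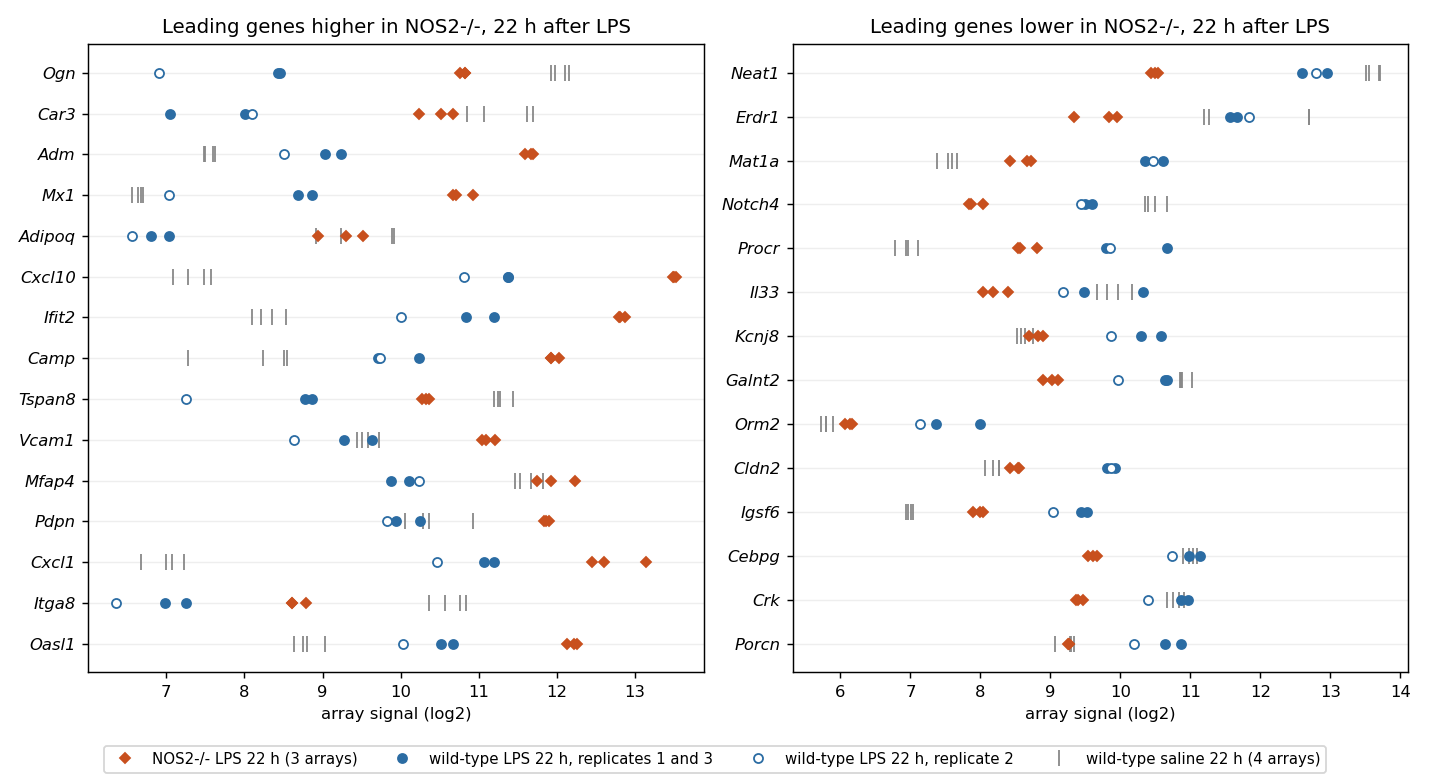
Log2 array signal of the 15 leading higher and 14 leading lower genes 22 h after LPS; diamonds are NOS2-/- arrays, circles wild-type arrays (open for replicate 2) and bars wild-type saline arrays, 1 mouse each. NOS2-/- and wild-type LPS arrays do not overlap for any of these genes, which their selection required. Cxcl10, for example, lay at 13.49 to 13.52 in NOS2-/- and 10.81 to 11.37 in wild-type lungs.

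Most of the type I interferon genes measured were higher in NOS2-/- lungs. Of the type I interferon list, 18 of 29 measured genes were higher and 0 lower by limma with all arrays (21 and 1 at an unadjusted p under 0.05; 15 and 1 without replicate 2, the 15 being among the 18), and the NOS2-/- arrays lay wholly above the wild-type arrays for 22 of the 29, where 19.7% of all genes lay above and 12.3% below. The median difference of the list was 0.49 (0.29 without replicate 2), against 0.00873 over all probe sets (0.0253). Leaving out each of the 6 arrays in turn left 13 to 20 higher genes. With each gene set relative to its median array, the median level of the list was 0.16, 0.07 and 0.03 on the NOS2-/- arrays and -0.16, -0.74 and -0.31 on the wild-type arrays, so that replicate 2 was the lowest. In saline lungs the list was far lower, at -2.12 in the NOS2-/- lung.

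Cxcl10, a chemokine that draws activated T and NK cells through CXCR3, was 13.52, 13.49 and 13.50 in NOS2-/- and 11.37, 10.81 and 11.37 in wild-type lungs, against a wild-type saline mean of 7.35. The difference was 2.32 ± 0.14 (4.99-fold, adjusted p = 3.25e-07; 4.39-fold without replicate 2). Mx1, an antiviral GTPase, was 10.92, 10.71 and 10.67 against 8.69, 7.04 and 8.86, a 5.93-fold difference (2.57 ± 0.41, adjusted p = 0.000613) that was 3.97-fold without replicate 2, the lowest of the wild-type arrays. Both genes stood above every wild-type array, which their selection as leading genes required. Ifit2, an interferon-induced protein that binds viral RNA, was 12.87, 12.80 and 12.81 against 10.83, 10.00 and 11.20 (4.44-fold, adjusted p = 3.94e-05; 3.51-fold without replicate 2). Oasl1, a restrainer of interferon production in the mouse, was 12.26, 12.22 and 12.13 against 10.67, 10.03 and 10.51 (3.49-fold, adjusted p = 1.11e-05; 3.07-fold without replicate 2). Ifit1, which binds viral RNA caps, was 13.23, 13.18 and 13.16 against 11.93, 11.60 and 11.81, 2.65-fold higher (adjusted p = 1.01e-05, 1.32 without replicate 2). For each of these 5 genes the NOS2-/- arrays lay closer together than the wild-type arrays.

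Of the interferon gamma list, 11 of 29 measured genes were higher and 2 lower (10 and 2 without replicate 2), with a median difference of 0.23 (0.12 without it). Socs1, an inhibitor of JAK-STAT signalling that interferons induce, was 10.22, 10.14 and 10.06 in NOS2-/- and 8.70, 8.84 and 8.42 in wild-type lungs (2.80-fold, adjusted p = 1.86e-05, log2 difference 1.58 without replicate 2). Cxcl11, another CXCR3 ligand, was 9.73, 9.71 and 9.66 against 8.11, 8.74 and 8.04 (2.64-fold, adjusted p = 2.82e-05; log2 difference 1.63 without replicate 2). Ifng, interferon gamma itself, was 8.57, 7.77 and 7.96 against 6.47, 7.38 and 6.68 (2.39-fold, adjusted p = 0.0129, log2 difference 1.53 without replicate 2), and its call was lost without NOS2-/- replicate 1. The lower members were Irgm2 and Gbp7, GTPases of cell-autonomous defence, with differences of -0.73 (adjusted p = 0.0442, -0.92 without replicate 2) and -0.62 (adjusted p = 0.0495, -0.80 without replicate 2). Both of these calls were lost when any one of the other arrays was left out, and kept without wild-type replicate 2.

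Promoter sequences of these genes are shown because interferons act through a short DNA element, the interferon-stimulated response element, bound by ISGF3 and IRF factors. In RefSeq promoter windows of GRCm38.p6, which run from 250 bases before to 50 bases after the start site, that element, searched on both strands as 2 copies of the letters GAAA with any 2 bases between them, occurred in 3.85% of the 9882 measured genes that have a window. It occurred in 11 of the 20 genes of the type I interferon list that have a window (55.0%), and not all genes of that list were called higher. It occurred in 37 of 878 genes with a window that were higher with and without replicate 2 (4.21%), and in 32 of 775 such lower genes (4.13%). Among leading genes with a window, 1 of 11 higher ones and 0 of 9 lower ones held it. The windows of Ifit2 and Oasl1 lack it. Of 25 interferon list genes that were higher with and without replicate 2, 20 have a window and 9 hold the element. A match is a description of the letters and not a binding site. From the 9 genes that hold the element, the windows of the 4 with the highest difference are printed. Each is cut to the element, in capitals, with its flanks, on the strand of the gene from 5' to 3'. The element lies 213 to 204 bases before the start site in Cxcl10 (chr5:92349063-92349132, minus strand). In Rsad2 (chr12:26456533-26456602, minus strand), an antiviral enzyme with a difference of 1.08, it lies 120 to 111 bases before the start site, in the reverse orientation. Socs1 (chr16:10785574-10785649, minus strand) has 2 overlapping copies from 83 to 68 bases before the start site, and Ifit1 (chr19:34640755-34640843, plus strand) has 2 copies in the reverse orientation between 104 and 76 bases before it.
Cxcl10: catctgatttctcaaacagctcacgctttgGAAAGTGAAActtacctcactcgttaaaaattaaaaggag
Socs1: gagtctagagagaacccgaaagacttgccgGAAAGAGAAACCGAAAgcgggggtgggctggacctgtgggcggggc
Ifit1: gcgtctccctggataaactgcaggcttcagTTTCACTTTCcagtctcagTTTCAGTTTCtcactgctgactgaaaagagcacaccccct
Rsad2: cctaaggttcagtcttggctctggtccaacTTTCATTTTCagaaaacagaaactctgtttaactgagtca

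Chemokines and cytokines were called in both directions, more of them higher than lower. Of 38 measured genes of that list, 15 were higher and 5 lower with all arrays, and the counts were also 15 and 5 without replicate 2. Without NOS2-/- replicate 1 or 3, 3 were lower. The median difference was 0.32 (0.20 without replicate 2), and 11 to 17 genes were higher when each array was left out in turn. Cxcl1, a neutrophil attractant, was 13.14, 12.60 and 12.45 in NOS2-/- and 11.20, 10.47 and 11.07 in wild-type lungs (3.52-fold, adjusted p = 4.81e-05; 3.02-fold without replicate 2). Ccl11, an eosinophil attractant, was 9.28, 8.75 and 8.80 against 7.40, 6.68 and 7.38 (3.45-fold, adjusted p = 9.39e-05, log2 difference 1.55 without replicate 2). Ccl17, a CCR4 ligand that draws T cells, was 10.31, 10.37 and 10.35 against 8.97, 8.81 and 8.55 (2.96-fold, adjusted p = 2.44e-06, log2 difference 1.59 without replicate 2). The groups of all of them were separate, and wild-type lungs had Ccl11 and Ccl17 near their saline means of 7.13 and 8.28. Il6 was 12.12, 11.22 and 10.77 against 10.02, 9.42 and 10.26 (2.77-fold, adjusted p = 0.0154, log2 difference 1.23 without replicate 2), and its call was lost without NOS2-/- replicate 1, the highest array. Ccl2, the monocyte attractant, was 2.36-fold higher (adjusted p = 0.00167, 1.30 without replicate 2).

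The lower members of the list included Il33, an alarmin of endothelial and epithelial nuclei, at 8.18, 8.04 and 8.39 in NOS2-/- and 10.32, 9.18 and 9.48 in wild-type lungs (2.74-fold lower, adjusted p = 0.000833; 3.24-fold without replicate 2). Wild-type lungs had Il33 near the saline mean of 9.90, and the NOS2-/- arrays were below it. Cxcl14 (-0.75, adjusted p = 0.00509, -0.86 without replicate 2), the anti-inflammatory cytokine Il10 (-0.47, adjusted p = 0.0217, -0.58 without replicate 2) and the growth factor Csf2 (-0.47, adjusted p = 0.0291) were lower too. Csf2 was not called without replicate 2 (-0.36, adjusted p = 0.0528). Vcam1, the endothelial receptor for leukocyte integrins, was 11.21, 11.09 and 11.04 in NOS2-/- and 9.28, 8.64 and 9.63 in wild-type lungs, 3.81-fold higher (1.93 ± 0.19, adjusted p = 1.44e-05; 3.16-fold without replicate 2). The other probe sets of Vcam1 had differences of 2.41 and 0.77.

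**Figure D3:**
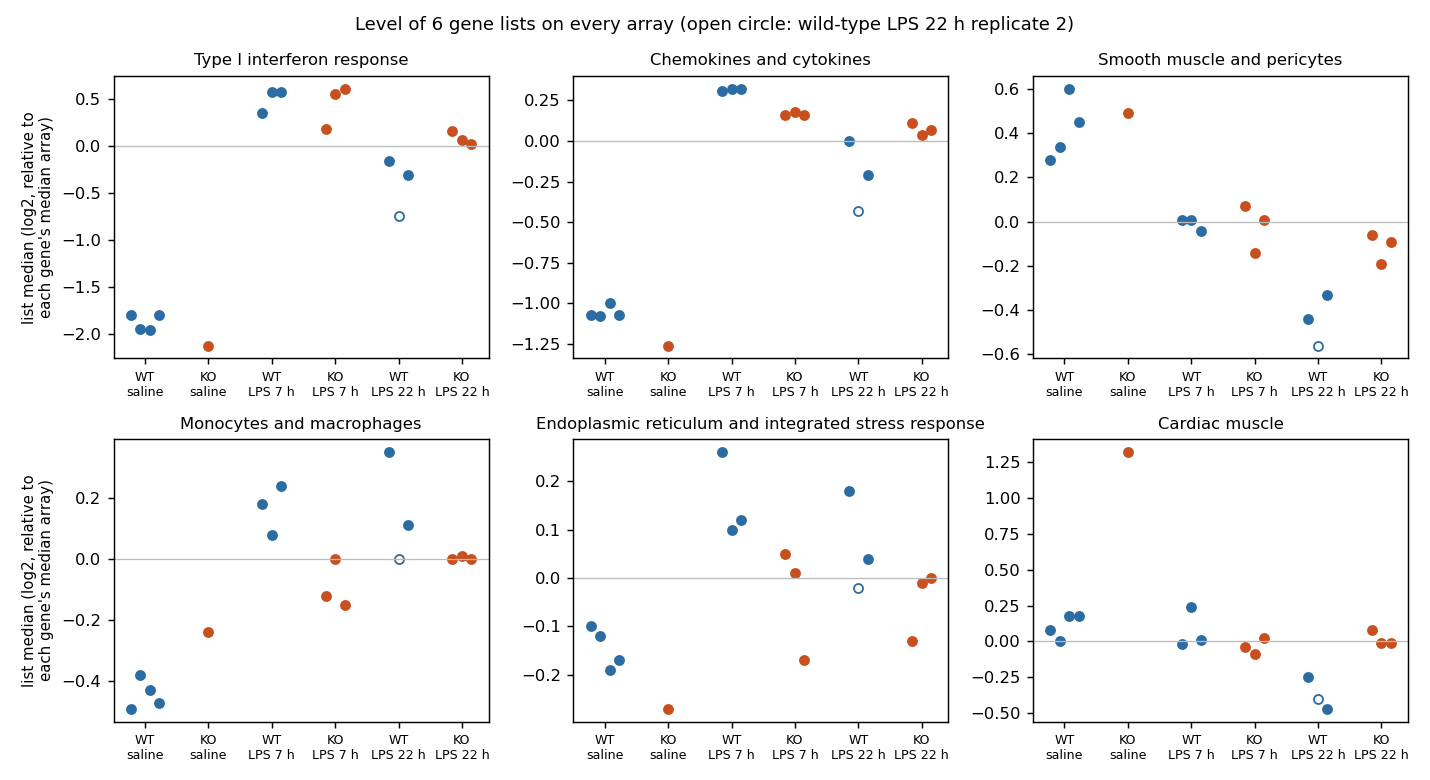
Level of 6 gene lists on each of the 17 arrays, as the list median of log2 values after setting each gene relative to its median array; each point is 1 mouse and the open circle is wild-type replicate 2 at 22 h. The type I interferon list lies at 0.03 to 0.16 on the NOS2-/- LPS 22 h arrays and at -0.74 to -0.16 on the wild-type ones, and the monocyte and macrophage list at 0.00 to 0.01 and 0.00 to 0.35.

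Of the vasoactive list, 5 of 32 measured genes were higher and 3 lower (4 and 6 without replicate 2), with a median near 0 (-0.05 and 0.04). Over all genes, 10.2% were called higher and 7.84% lower (11.9% and 16.6% without replicate 2). Adm, adrenomedullin, a vasodilator peptide of the vessel wall, was 11.59, 11.69 and 11.67 in NOS2-/- and 9.03, 8.50 and 9.23 in wild-type lungs, against a wild-type saline mean of 7.55 and 7.61 in the NOS2-/- saline lung. It was 6.63-fold higher (2.73 ± 0.22, adjusted p = 2.75e-06; 5.73-fold without replicate 2). Receptors for it form from Calcrl with a RAMP protein, and Ramp2 was lower, at 10.70, 10.78 and 10.85 against 11.84, 11.39 and 11.79 (-0.90 ± 0.12, adjusted p = 0.000189, -1.04 without replicate 2). Ramp1, the partner in the receptor for CGRP, was higher (0.66, adjusted p = 0.00305, 0.48 without replicate 2). Ptgs2, the inducible cyclooxygenase, was 10.60, 9.04 and 8.67 against 8.20, 7.99 and 8.10 (2.53-fold, adjusted p = 0.0109, log2 difference 1.29 without replicate 2), with replicate 1 far above the other NOS2-/- arrays. Prkg1, the kinase that acts on cyclic GMP in smooth muscle, was higher (0.69, adjusted p = 0.00519, 0.48 without replicate 2).

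Kcnj8, a pore subunit of the ATP-sensitive potassium channels of vascular smooth muscle and pericytes, was 8.89, 8.82 and 8.70 in NOS2-/- and 10.58, 9.87 and 10.29 in wild-type lungs, against a saline mean of 8.62. It was 2.72-fold lower (-1.44 ± 0.13, adjusted p = 6.51e-06; 3.09-fold without replicate 2), and the NOS2-/- arrays were close to saline. Apln, the ligand of the apelin receptor, was 10.20, 10.07 and 10.11 against 10.34, 10.91 and 10.52 (-0.46, adjusted p = 0.0173, -0.30 without replicate 2), with wild-type replicate 2 the highest.

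Endothelial markers moved both ways: 5 of 30 measured genes were higher and 7 lower (3 and 9 without replicate 2), with a median of -0.11 (-0.17). Without any one NOS2-/- array 3 were higher, and 4 were lower without NOS2-/- replicate 2 or 3. Vwf, the platelet-binding glycoprotein, was 10.57, 10.36 and 10.25 in NOS2-/- and 9.31, 8.49 and 9.14 in wild-type lungs (2.66-fold higher, adjusted p = 9.39e-05, log2 difference 1.17 without replicate 2). The guidance receptor Robo4 (0.75, adjusted p = 0.000119, 0.65 without replicate 2) and the junction protein Cdh5 (0.62, adjusted p = 0.000785, 0.47 without replicate 2) were also higher. The transcription factor Klf4 was higher by both of its probe sets (0.37 and 0.70). Without replicate 2 the first did not pass the test (0.29, adjusted p = 0.0732) and the other did (0.59). On the lower side, Notch4, a Notch receptor of endothelium, was 8.04, 7.84 and 7.87 against 9.49, 9.44 and 9.59 (3.02-fold lower, adjusted p = 2.1e-06, log2 difference -1.63 without replicate 2), but its other probe set showed a difference of 0.06. Without replicate 2 that other probe set was called higher (0.28, limma adjusted p = 0.00716), so the probe sets of Notch4 disagreed. Procr, the endothelial receptor of protein C, was 8.81, 8.56 and 8.54 against 10.67, 9.85 and 9.80, with a saline mean of 6.94 (2.77-fold lower, adjusted p = 0.000137; 3.03-fold without replicate 2). The transcription factor Sox18 (-0.80, adjusted p = 0.00325, -0.84 without replicate 2) and the angiogenic factor Egfl7 (-0.47, adjusted p = 0.00517, -0.47 without replicate 2) were lower as well.

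More matrix and smooth muscle genes were higher than lower in NOS2-/- lungs. Of the fibroblast and matrix list, 11 of 20 measured genes were higher and 4 lower, with and without replicate 2, and the median was 0.45 (0.32). Leaving out each array in turn left 7 to 13 higher (7 without NOS2-/- replicate 3). The lower count was 2 without NOS2-/- replicate 3, wild-type replicate 1 or wild-type replicate 3. The median level of the list was 0.00, 0.00 and -0.03 on the NOS2-/- arrays and -0.44, -0.70 and -0.28 on the wild-type arrays, relative to the median array. Mfap4, a microfibril protein of elastic fibres, was 12.23, 11.92 and 11.74 in NOS2-/- and 10.11, 10.23 and 9.87 in wild-type lungs (3.72-fold higher, adjusted p = 2.75e-06; 3.93-fold without replicate 2), and the saline mean of 11.62 lay among the NOS2-/- arrays. Inmt (1.12, adjusted p = 0.000225, 1.04 without replicate 2), an amine methyltransferase abundant in lung, the matricellular protein Postn (1.11, adjusted p = 0.000115, 0.89 without replicate 2) and the collagen gene Col1a2 (0.83, adjusted p = 0.000429, 0.67 without replicate 2) were higher. Saline lungs were higher still in these 3 genes, at means of 14.01, 12.05 and 12.47. The lower members included the PDGF receptor Pdgfra (-0.99, adjusted p = 0.000573, -1.15 without replicate 2), the mesenchymal transcription factor Tcf21 (-0.81, adjusted p = 0.0178, -1.06 without replicate 2) and the proteoglycan Dcn (-0.32, adjusted p = 0.0187, -0.39 without replicate 2).

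Ogn, a small leucine-rich proteoglycan of connective tissue, was 10.82, 10.82 and 10.76 in NOS2-/- and 8.43, 6.91 and 8.46 in wild-type lungs, against 12.03 in wild-type and 12.08 in NOS2-/- saline lungs. It was 7.29-fold higher (2.87 ± 0.28, adjusted p = 1.22e-05), and 5.11-fold without replicate 2, the lowest array; its other probe set gave 1.90. Itga8, an integrin subunit of smooth muscle and fibroblasts, was 8.61, 8.79 and 8.61 against 6.98, 6.36 and 7.25, with a saline mean of 10.63 (3.50-fold higher, adjusted p = 2.4e-05; 2.94-fold without replicate 2). For both, the NOS2-/- arrays stood between the wild-type LPS and the saline arrays. Of the smooth muscle and pericyte list, 7 of 16 measured genes were higher and 1 lower (8 and 0 without replicate 2), with a median of 0.35 (0.32). Tagln, a smooth muscle actin-binding protein, lay between 10.88 and 11.06 in NOS2-/- and between 10.07 and 10.13 in wild-type lungs (0.88, adjusted p = 7.34e-05, 0.88 without replicate 2). The smooth muscle actin Actg2 (0.95), the Notch receptor Notch3 (0.83) and the myosin kinase Mylk (0.62) were also higher, with adjusted p-values of 0.00658, 0.000326 and 0.0021. The lower member, Higd1b, was called with all arrays and not without replicate 2 or any one NOS2-/- array.

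Epithelial markers divided. Pdpn, a surface glycoprotein of alveolar type 1 cells, was 11.90, 11.84 and 11.86 in NOS2-/- and 10.25, 9.82 and 9.94 in wild-type lungs (3.63-fold higher, adjusted p = 7.56e-06; 3.41-fold without replicate 2). Cav1, the caveolae protein of type 1 cells and endothelium, was 11.57, 11.62 and 11.68 against 10.62, 10.04 and 10.93 (2.13-fold higher, adjusted p = 0.000609, log2 difference 0.85 without replicate 2), and Ager was higher by 0.61. Yet Rtkn2 (-1.01, adjusted p = 0.000849, -1.11 without replicate 2), Aqp5 (-0.56, adjusted p = 0.00319, -0.59 without replicate 2) and Hopx (-0.21, adjusted p = 0.03, -0.24 without replicate 2), all marking the same cells, were lower. The type 1 list had 3 of 9 measured genes higher and 3 lower (3 and 4 without replicate 2, and 5 higher without wild-type replicate 3). The type 2 list had 4 of 15 higher and 3 lower (3 and 6 without replicate 2): the surfactant proteins Sftpb (0.61, adjusted p = 0.000161, 0.53 without replicate 2) and Sftpc (0.29, adjusted p = 0.00445, 0.23 without replicate 2) were higher, and the lipid transporter Abca3 (-0.40, adjusted p = 0.00202, -0.46 without replicate 2) and the phosphate carrier Slc34a2 (-0.44, adjusted p = 0.0144, -0.59 without replicate 2) lower. In airway cells, 4 of 13 club and ciliated genes were higher and 2 lower (5 and 2 without replicate 2). Only 1 was lower without NOS2-/- replicate 2 or 3 or wild-type replicate 1. Cyp2f2, a cytochrome of club cells, was 13.42, 13.67 and 13.63 against 12.68, 12.40 and 12.47 (2.08-fold higher, adjusted p = 2.44e-06, log2 difference 1.00 without replicate 2). Muc5b, a gel-forming mucin, was 10.97, 10.68 and 10.62 against 11.96, 11.72 and 11.72 (2.06-fold lower, adjusted p = 0.00038, log2 difference -1.08 without replicate 2). Tspan8, an epithelial tetraspanin, was 10.36, 10.33 and 10.27 against 8.78, 7.25 and 8.87 (4.05-fold higher, adjusted p = 0.000274; 2.81-fold without replicate 2), but its other probe sets gave only 0.47, 0.29 and 0.34, the last without passing the test.

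Some genes that mark fat and muscle were higher in NOS2-/- lungs. Car3, a carbonic anhydrase of fat and muscle, was 10.67, 10.24 and 10.51 in NOS2-/- and 7.05, 8.10 and 8.01 in wild-type lungs, against 11.30 in wild-type and 12.51 in NOS2-/- saline lungs. It was 6.74-fold higher (2.75 ± 0.29, adjusted p = 2.7e-05; 7.68-fold without replicate 2), and 0.93 higher by its other probe set. Adipoq, the adipocyte hormone adiponectin, was 9.52, 8.94 and 9.30 against 6.80, 6.56 and 7.04 (5.46-fold, adjusted p = 3.39e-05; 5.03-fold without replicate 2), with 9.49 and 10.84 in wild-type and NOS2-/- saline lungs. Of the adipose list, 2 of 11 measured genes were higher and 0 lower (4 and 0 without replicate 2), with a median of 0.13 (0.16), the other being Cidea, a lipid droplet protein (0.55, adjusted p = 0.00739, 0.52 without replicate 2). Cardiac muscle genes, which the mouse lung also expresses in the walls of its veins, were higher in 11 of 22 and lower in 0 (15 and 0 without replicate 2), with a median of 0.39 (0.40). Leaving out each array in turn left 6 to 15 of them higher (6 without NOS2-/- replicate 1 and 7 without wild-type replicate 3). By array, their median level was 0.08, -0.01 and -0.01 in NOS2-/- and -0.25, -0.40 and -0.47 in wild-type lungs, and 1.32 in the NOS2-/- saline lung, relative to the median array. Actc1, cardiac actin, was 11.31, 11.44 and 11.43 against 10.59, 10.28 and 10.32 (1.99-fold, adjusted p = 0.000196, log2 difference 0.94 without replicate 2), and the muscle LIM protein Csrp3 and the atrial light chain Myl7 were higher by 0.92 and 0.78. Skeletal muscle genes were higher in 3 of 19 and lower in 0 (8 and 0 without replicate 2, 5 without NOS2-/- replicate 2, and 0 without NOS2-/- replicate 1, NOS2-/- replicate 3 or wild-type replicate 3). The NOS2-/- saline values of Car3 and Adipoq come from a single array. That array was also the highest of all arrays in the skeletal muscle (1.04) and adipose (0.36) lists, relative to the median array. The part of the amount of fat, heart or other muscle tissue taken with each lung was not tested.

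Neat1, a long noncoding RNA that scaffolds nuclear paraspeckles, was 10.49, 10.44 and 10.54 in NOS2-/- and 12.95, 12.79 and 12.59 in wild-type lungs, against a wild-type saline mean of 13.62. It was 4.88-fold lower (-2.29 ± 0.16, adjusted p = 1.13e-06; 4.86-fold without replicate 2). Erdr1, the erythroid differentiation regulator, was 9.84, 9.34 and 9.95 against 11.57, 11.83 and 11.67 (3.94-fold lower, adjusted p = 0.00166; 3.76-fold without replicate 2), and the wild-type saline arrays were themselves divided for it (11.27, 11.20, 12.70 and 12.70). Mat1a, which makes S-adenosylmethionine, was 8.67, 8.72 and 8.42 against 10.61, 10.47 and 10.35, with a saline mean of 7.54 (3.68-fold lower, adjusted p = 6.39e-06; 3.69-fold without replicate 2). Neat1 was thus below saline in both genotypes, further in NOS2-/- lungs, and Mat1a above saline in both, further in wild-type lungs.

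Cldn2, a claudin that forms cation pores in tight junctions, was 8.55, 8.42 and 8.54 in NOS2-/- and 9.92, 9.86 and 9.81 in wild-type lungs (2.56-fold lower, adjusted p = 2.97e-07, log2 difference -1.36 without replicate 2), while its other probe set gave -0.26. Galnt2, an enzyme that starts O-linked glycosylation, was 9.11, 9.02 and 8.90 against 10.66, 9.97 and 10.63 (2.66-fold lower, adjusted p = 1.29e-05; 3.11-fold without replicate 2), with -1.20 and -0.83 by its other probe sets. Igsf6, an immunoglobulin-family protein of myeloid cells, lay between 7.90 and 8.03 against 9.52, 9.04 and 9.43 (2.55-fold lower, adjusted p = 5.82e-06, log2 difference -1.49 without replicate 2). None of them overlapped between the groups, which their selection as leading genes required. Cebpg, a bZIP transcription factor, was 9.66, 9.61 and 9.53 against 11.13, 10.73 and 10.98 (2.55-fold lower, adjusted p = 2.91e-06, log2 difference -1.46 without replicate 2), and its other probe sets gave -0.96 and -0.23, the last without passing the test. Crk, an SH2 adaptor protein, was 9.47, 9.37 and 9.40 against 10.97, 10.40 and 10.87 (2.52-fold lower, adjusted p = 1.2e-05, log2 difference -1.51 without replicate 2). One further probe set of Crk gave -1.32 and the others -0.02, 0.05 and -0.17, so the probe sets of this gene disagreed. Porcn, which acylates Wnt proteins, was 9.27, 9.25 and 9.27 against 10.64, 10.19 and 10.87 (2.47-fold lower, adjusted p = 6.18e-05; 2.81-fold without replicate 2).

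More acute-phase genes were lower than higher: of 22 measured, 5 were lower and 1 higher (11 and 1 without replicate 2), with a median of -0.21 (-0.28). Orm2 was 6.14, 6.07 and 6.17 in NOS2-/- lungs and from 7.14 upwards in wild-type lungs, with an SD of 0.44 over the 3 arrays (2.60-fold lower, adjusted p = 3.14e-05; 2.94-fold without replicate 2). Orm1, which like Orm2 encodes an orosomucoid, was 9.75, 9.72 and 9.80 against 10.97, 10.41 and 11.06, with a saline mean of 6.22 (2.08-fold lower, adjusted p = 0.000274, log2 difference -1.26 without replicate 2). These genes are close paralogs, and probes could read both. Itih4 (-0.84, adjusted p = 0.00141, -0.96 without replicate 2) was lower, and so was ceruloplasmin, Cp, by its brightest probe set (-0.61, adjusted p = 0.00161, -0.74 without replicate 2), though 2 of its other probe sets gave 0.10 and -0.04. The metallothionein Mt2 was the higher member, at 0.30 (adjusted p = 0.0226, 0.23 without replicate 2), a call lost without any one NOS2-/- array.

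Myeloid markers showed different pictures. Of the monocyte and macrophage list, 6 of 20 measured genes were lower and 0 higher (9 and 0 without replicate 2), with a median of -0.18 (-0.27), and 3 to 9 were lower when each array was left out (3 without NOS2-/- replicate 1, 2 or 3 or wild-type replicate 1, and 4 without wild-type replicate 3). The median level of the list was 0.35, 0.00 and 0.11 on the wild-type arrays and 0.00, 0.01 and 0.00 on the NOS2-/- arrays, so that the groups met at replicate 2. Itgam, the CD11b integrin, was 9.39, 9.44 and 9.52 in NOS2-/- and 11.06, 10.09 and 10.53 in wild-type lungs, with a saline mean of 7.03 (2.16-fold lower, adjusted p = 0.00142, log2 difference -1.35 without replicate 2). The chemokine receptor Ccr2 (-0.87, adjusted p = 0.000449, -0.92 without replicate 2) and the growth factor receptor Csf1r (-0.46, adjusted p = 0.00345, -0.50 without replicate 2) were lower too. Of the alveolar macrophage list, 3 of 14 were lower and 0 higher (5 and 0 without replicate 2, and 1 and 0 without NOS2-/- replicate 1 or 2), among them the scavenger receptor Marco (-0.73, adjusted p = 0.00915, -0.85 without replicate 2).

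Neutrophil markers were higher in 6 of 21 and lower in 5 (7 and 5 without replicate 2). The lower count was 3 without NOS2-/- replicate 2 or wild-type replicate 1. Camp, the cathelicidin of neutrophil granules, was 11.93, 11.93 and 12.02 in NOS2-/- and 10.23, 9.74 and 9.71 in wild-type lungs (4.19-fold higher, adjusted p = 0.000935; 3.97-fold without replicate 2). Myeloperoxidase, Mpo, was 9.91, 9.64 and 9.71 against 8.57, 8.46 and 8.29 (2.48-fold higher, adjusted p = 4.98e-05, log2 difference 1.32 without replicate 2). Lactoferrin, Ltf, was 0.78 higher (adjusted p = 0.0252, 0.77 without replicate 2), a call lost without any one NOS2-/- array or wild-type replicate 3. On the lower side, Mmp9 (-0.78, adjusted p = 0.000986, -0.85 without replicate 2), Mmp8 (-0.54, adjusted p = 0.00454, -0.66 without replicate 2) and the formyl peptide receptor Fpr2 (-0.69, adjusted p = 0.000124, -0.78 without replicate 2) passed the test.

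Of the genes linked to alternative macrophage activation and to IL-4 and IL-13, 9 of 29 were higher and 5 lower with all arrays, and 5 and 7 without replicate 2, with a median of -0.01 (0.02). Without any one NOS2-/- array 4 were higher. The lower count was 3 without NOS2-/- replicate 1 and 2 without NOS2-/- replicate 2, NOS2-/- replicate 3 or wild-type replicate 1. Retnla, a secreted protein of alternatively activated macrophages and airway epithelium, was 12.91, 13.19 and 13.03 in NOS2-/- and 14.20, 14.08 and 14.27 in wild-type lungs, with a saline mean of 11.74 (2.20-fold lower, adjusted p = 7.26e-06, log2 difference -1.19 without replicate 2). Egr2 and Pparg were lower by smaller amounts (-0.41 and -0.48). Lower too was Stat6, the transcription factor of IL-4 signalling (9.90, 9.91 and 9.85 against 10.55, 10.03 and 10.43; -0.45, adjusted p = 0.0147, -0.60 without replicate 2). Ccl22, the other CCR4 ligand, was 11.23, 11.34 and 11.39 against 10.02, 9.94 and 10.05 (2.49-fold higher, adjusted p = 7.72e-07, log2 difference 1.29 without replicate 2). The receptor gene Il4ra (0.69, adjusted p = 0.000106, 0.64 without replicate 2) and the STAT5 target Cish (0.82, adjusted p = 0.000161, 0.79 without replicate 2) were higher as well.

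Stress and metabolic lists held calls in both directions. Over all genes, the share called lower went from 7.84% to 16.6% without replicate 2, and the share called higher from 10.2% to 11.9%. Of the endoplasmic reticulum and integrated stress response list, 8 of 32 were lower and 4 higher (13 and 4 without replicate 2), with a median of -0.19 (-0.27). The higher count was 2 without NOS2-/- replicate 1 or 2. The lower ones included the chaperone Hsp90b1 (-0.94, adjusted p = 0.0013, -0.97 without replicate 2), Creld2 (-0.82, adjusted p = 0.000675, -0.89 without replicate 2), the disulfide isomerase Pdia6 (-0.73, adjusted p = 0.000306, -0.68 without replicate 2) and the transcription factor Ddit3 (-0.60, adjusted p = 0.00105, -0.62 without replicate 2). Atf3 was 10.32, 10.13 and 10.25 against 9.34, 9.37 and 9.04 (1.97-fold higher, adjusted p = 1.29e-05, log2 difference 1.04 without replicate 2). Of the cholesterol and fatty acid synthesis list, 8 of 26 were lower and 3 higher (14 and 2 without replicate 2), with a median of -0.22 with and without it. Without NOS2-/- replicate 1, 1 was higher, and the lower count fell to between 3 and 5 without any one of the other 5 arrays. The sterol enzymes Msmo1 (-1.12, adjusted p = 6.98e-05, -1.21 without replicate 2), Idi1 (-0.75, adjusted p = 0.00123, -0.85 without replicate 2) and Fdps (-0.62, adjusted p = 0.000934, -0.66 without replicate 2) were lower. The desaturase Scd2 (0.86, adjusted p = 0.000281, 0.75 without replicate 2) was higher. The antioxidant list had 9 of 25 higher and 2 lower (8 and 5 without replicate 2, and 4 lower without wild-type replicate 3), with Gsta3, a glutathione transferase, at 10.58, 10.69 and 10.70 against 9.25, 9.22 and 9.64 (2.44-fold, adjusted p = 6.02e-06, log2 difference 1.21 without replicate 2). The superoxide dismutase Sod1 was at 12.09, 12.03 and 12.00 against 11.09, 10.84 and 10.78 (2.20-fold, adjusted p = 0.00166, log2 difference 1.11 without replicate 2). The heat shock list had 5 of 20 higher and 1 lower (5 and 5 without replicate 2, and 0 lower without any one of the other arrays), led by Dnajb4 (1.10, adjusted p = 0.000776, 0.81 without replicate 2).

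Of the circadian clock list, 5 of 17 were higher and 1 lower (6 and 1 without replicate 2, and 0 lower without any one NOS2-/- array or wild-type replicate 3), with a median of 0.28 (0.15). Nfil3, a transcriptional repressor tied to the clock, was 11.21, 11.07 and 10.77 against 10.09, 9.14 and 9.87 (2.50-fold, adjusted p = 0.000777, log2 difference 1.04 without replicate 2). Per1 was 0.89 higher (adjusted p = 0.000447, 0.81 without replicate 2). The glucocorticoid-responsive list, which shares Per1 with the clock list, had 8 of 20 higher and 0 lower (7 and 1 without replicate 2, and 5 higher without NOS2-/- replicate 1 or 2), with a median of 0.30 (0.15), among them the cell cycle inhibitor Cdkn1a at 13.56, 13.49 and 13.49 against 12.73, 12.24 and 12.56 (2.01-fold, adjusted p = 2.74e-05, log2 difference 0.87 without replicate 2). Of the STAT3 targets, 7 of 24 were higher and 0 lower (9 and 2 without replicate 2), with a median of 0.24 (0.22), such as Bcl3 (0.83), Junb (0.82) and Pim1 (0.77). Stat3 itself had a difference of 0.27 that did not pass the test (adjusted p = 0.0596, 0.15 without replicate 2). The hypoxia and glycolysis list had 4 of 28 higher and 2 lower (4 and 7 without replicate 2), with Adm among the higher ones. Without wild-type replicate 1, 8 were higher, and 1 was lower without it or any one NOS2-/- array. Hif1a showed 0.07 with all arrays and -0.13 without replicate 2 (adjusted p = 0.791 and 0.389). The coagulation list had 4 of 25 higher and 3 lower (6 and 6 without replicate 2), with factor X, F10, lower by its brightest probe set (-0.78, adjusted p = 0.00569, -0.73 without replicate 2) and the urokinase receptor Plaur higher (0.70, adjusted p = 0.00126, 0.56 without replicate 2). In the cell cycle list, 0 of 39 genes were higher and 1, Pcna, lower by limma (7 and 2 at an unadjusted p under 0.05; 1 and 2 called without replicate 2, and 3 higher without wild-type replicate 1 or 3).

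Some genes named above have a further probe set that did not pass the test with all arrays. On the higher side these were Ptgs2 (0.58), Cxcl11 (0.36), Col1a2 (0.31), Il4ra (0.24) and Sftpc (0.07). On the lower side they were Gbp7 (-0.40), Hsp90b1 (-0.44), Pdia6 (-0.01), Ccr2 (-0.05), Csf1r (-0.35), Egfl7 (-0.06), F10 (-0.15), Egr2 (-0.21), Idi1 (-0.84), Fdps (-0.90) and Abca3 (-0.21 and -0.42).

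**Figure D4:**
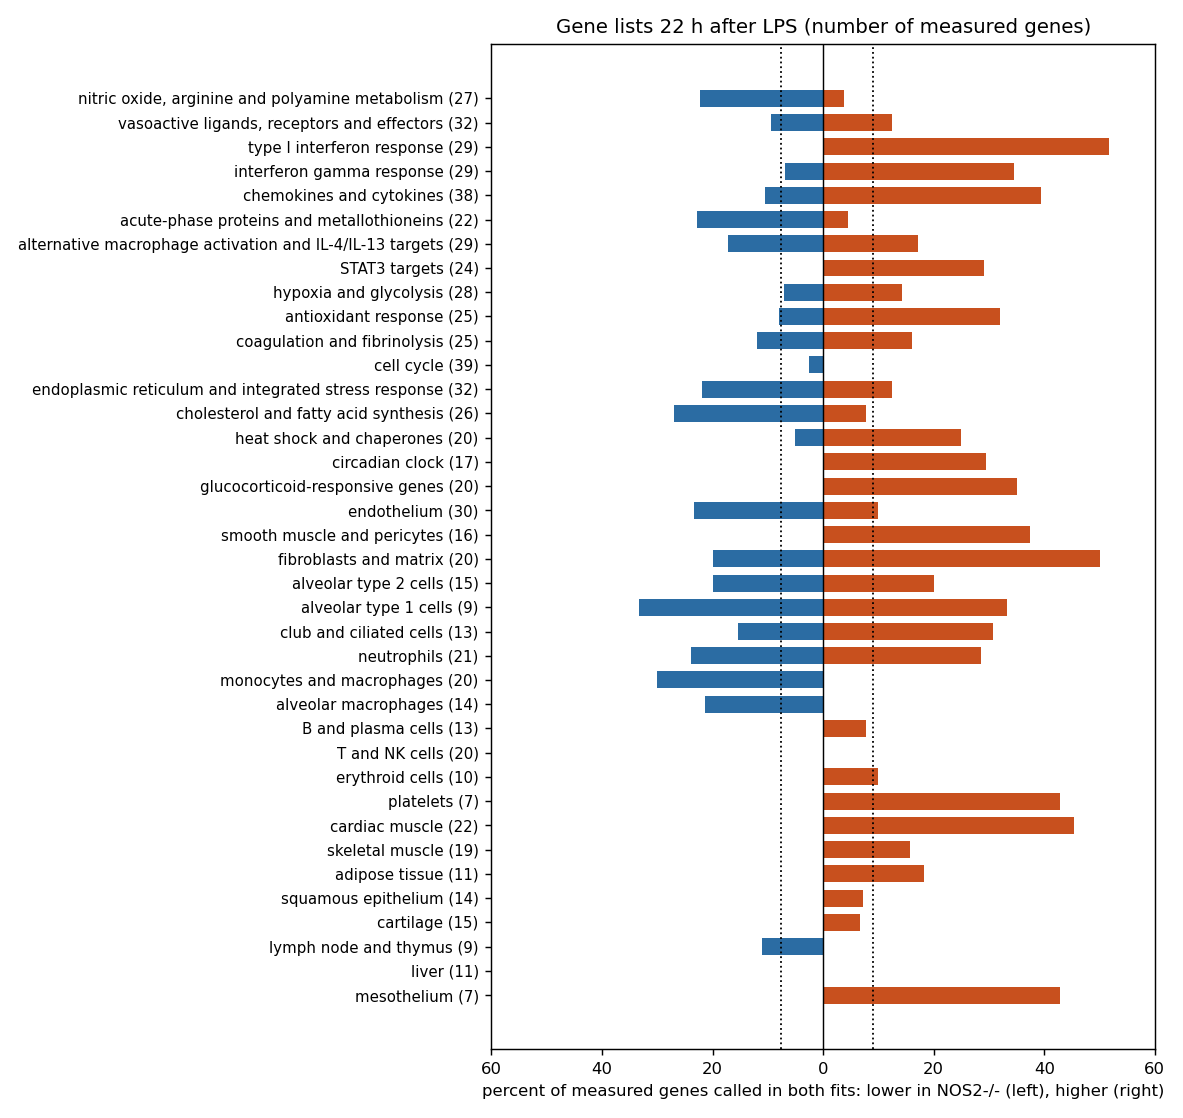
Share of the measured genes of each list (number in brackets) called lower, to the left, or higher, to the right, in NOS2-/- lungs with and without wild-type replicate 2; dotted lines mark the shares over all genes (7.54% lower and 8.96% higher). The type I interferon and fibroblast lists reach furthest on the higher side, with 15 of 29 and 10 of 20 genes.

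Platelet genes were higher in 3 of 7 and lower in 0 (4 and 0 without replicate 2), with Ppbp, platelet basic protein, at 11.21, 11.15 and 11.30 against 10.19, 8.92 and 9.73 (3.04-fold, adjusted p = 0.000786, log2 difference 1.26 without replicate 2). Mesothelial genes were higher in 3 of 7 (5 without wild-type replicate 2, 1 without NOS2-/- replicate 2, and 2 without replicate 3 of either genotype), led by the membrane glycoprotein Gpm6a at 8.83, 9.13 and 9.07 against 7.91, 7.10 and 7.90 (2.59-fold, adjusted p = 0.000156, log2 difference 1.11 without replicate 2). The T and NK cell list had 0 of 20 called in either direction by limma (2 higher and 2 lower at an unadjusted p under 0.05, and 2 and 2 called without replicate 2), and its gene with the greatest difference, granzyme A (Gzma), was at -0.53 (adjusted p = 0.0583, -0.72 without replicate 2). In each of the B and plasma cell (of 13), erythroid (of 10), squamous epithelium (of 14) and cartilage (of 15) lists 1 gene was higher. In the lymph node and thymus list (of 9) 1 was lower, where 10.2% of all genes were called higher and 7.84% lower. Leaving out an array moved some of these counts, to 3 in the B and plasma cell list without wild-type replicate 3 and to 0 in the erythroid list without NOS2-/- replicate 2 or 3, in the lymph node and thymus list without NOS2-/- replicate 2, and in the cartilage list without NOS2-/- replicate 1 or 3 or wild-type replicate 1 or 3 (2 without wild-type replicate 2). By limma 0 were called among 11 liver genes (0 higher and 1 lower at an unadjusted p under 0.05, and 2 and 1 called without replicate 2).

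Some calls depended on wild-type replicate 2. The 5 greatest higher calls lost without it were Rgs1, Tra2a, Mmp13, Elovl6 and Oxsm, and in each of them replicate 2 was the lowest of the 6 arrays, as for the splicing factor Tra2a at 9.71, 9.60 and 9.68 against 9.20, 8.42 and 9.34. The 5 greatest lower calls lost were Tnc, Dbp, Higd1b, Gimap7 and Tcf23, and replicate 2 was the highest array in all of these but Tnc. Each call is by the brightest probe set of the gene. Another probe set of Elovl6 was called higher with and without replicate 2 (0.40 and 0.54). Another of Dbp was called lower only without it (-0.72). Among the calls gained were the muscle genes Acta1 and Mybph and the brown fat gene Ucp1 on the higher side, and on the lower side the natriuretic peptide receptor Npr3 (9.16, 9.03 and 9.21 against 10.06, 9.35 and 10.49) and the ubiquitin ligase Cbl (8.61, 8.51 and 8.68 against 9.51, 8.40 and 9.51; -0.54 with and -0.91 without it). Another probe set of Npr3 was called lower with all arrays too (-0.54, and -0.49 without replicate 2).

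The genotype difference was smaller at 7 h, in other mice. At that time 119 probe sets were higher (0.526%) and 335 lower (1.48%) in NOS2-/- lungs, or 0.67% and 1.52% of genes. Of the 934 genes lower at 22 h with and without replicate 2, 842 (90.1%) were also below 0 at 7 h, 105 of them called and 0 called in the other direction, where 49.8% of all genes below 0 at 22 h were below 0 at 7 h. Of the 1110 higher genes, 705 (63.5%) were above 0 at 7 h, 32 of them called and 5 called lower, where 62.0% of all genes above 0 at 22 h were. The shares are descriptions over genes, which are not independent replicates, and they ranged from 88.1% to 91.4% for lower and from 59.7% to 66.0% for higher genes when each array of 7 h was left out. Of the leading genes, 3 of 15 higher ones were called higher at 7 h (Adm 0.92, Mfap4 0.65 and Pdpn 0.80) and 3 of 14 lower ones called lower (Neat1 -1.15, Igsf6 -0.93 and Cebpg -0.79). Cxcl10 (-0.03), Ifit2 (-0.02) and Cxcl1 (-0.20) did not pass the test at 7 h. Itgam was already lower at 7 h (-1.20, adjusted p = 0.0121), as were Hsp90b1 (-0.81) and Creld2 (-0.75), and 7 genes of the endoplasmic reticulum and integrated stress response list and 4 of the monocyte and macrophage list were lower then.

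An interaction in the same fit tested the change of the genotype difference from 7 h to 22 h. It passed for 564 probe sets in the higher direction (2.49%) and 123 in the lower (0.544%). These counts are with all arrays and are not given without wild-type replicate 2, which enters the term. In saline lungs, where 1 NOS2-/- array stood against 4 wild-type arrays and the lone array was assumed to vary like the other groups, 256 probe sets were higher (1.13%) and 62 lower (0.274%). Of the 934 lower genes, 57.1% were below 0 in saline lungs, against 64.2% of all genes below 0 at 22 h. Of the 1110 higher genes, 54.4% were above 0 in saline lungs, against 48.2% of all genes above 0 at 22 h. The lone NOS2-/- saline array had the highest squamous epithelium (1.90), cardiac muscle (1.32) and skeletal muscle (1.04) list levels of all arrays, relative to the median array. Its cartilage (-0.03) and liver (-0.11) levels were close to those of wild-type saline arrays. The part of other tissue taken with this lung in the saline counts and shares was not tested.

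**Figure D5:**
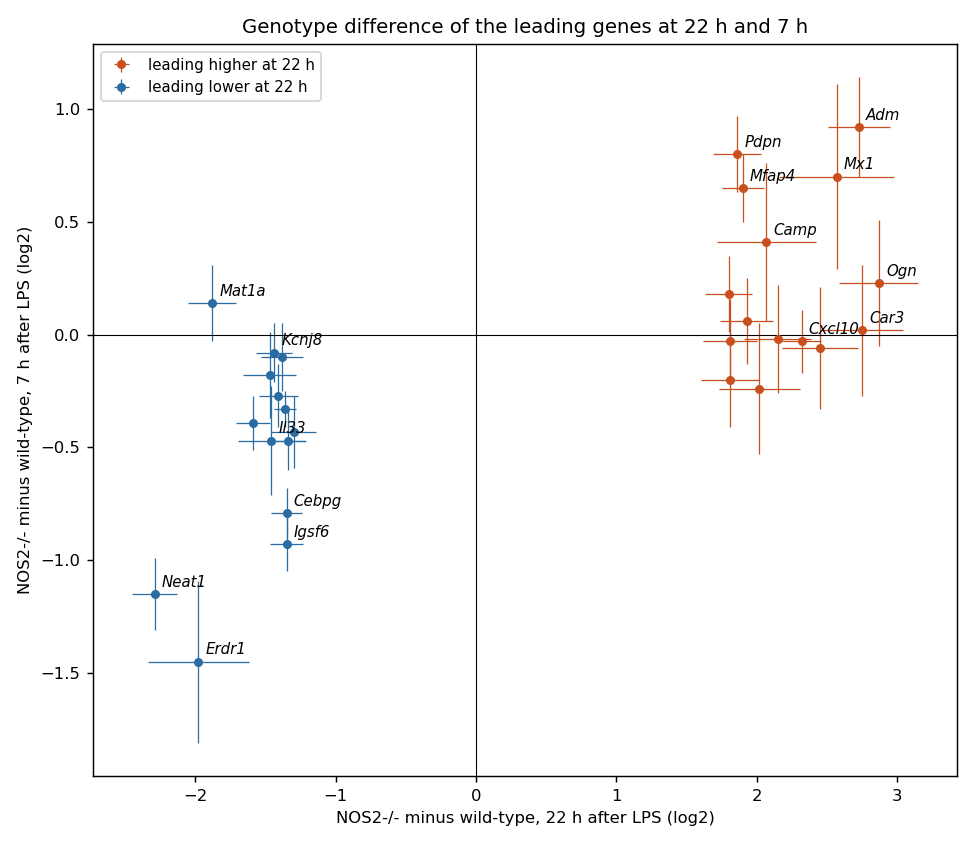
Genotype difference (log2, NOS2-/- minus wild-type) of the 29 leading genes at 22 h after LPS on the horizontal axis and at 7 h on the vertical axis, with lines of 1 SE. The higher genes lie on both sides of 0 at 7 h, such as Cxcl10 at -0.03 against 2.32 at 22 h, and 13 of 14 lower genes lie below 0 at both times, such as Neat1 at -1.15 and -2.29.

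Genes next to Nos2 on chromosome 11 were looked at separately, because a targeted allele carries flanking DNA of the strain it was made in. Within 5 Mb before Nos2, 15 of 70 measured genes (21.4%) were called with and without replicate 2. Within 5 Mb after it these were 11 of 46 (23.9%). The share over all genes was 16.5%. Other 5 Mb steps within 20 Mb of Nos2 ranged from 10.5% to 20.0% (20 of 100 genes), and whole chromosomes from 12.2% to 18.9%. Some of these neighbours belong to the chemokine cluster there, with Ccl11 at 1.79, Ccl2 at 1.24, Ccl4 at 0.88 and Ccl12 at 0.85. Crk, one of the leading lower genes, is also among the called neighbours, at -1.34 by its brightest probe set. Its other probe sets lay between -1.32 and 0.05. Others were the galectin gene Lgals9 at 13.02, 13.04 and 13.01 against 12.09, 11.85 and 12.03 (2.04-fold higher, adjusted p = 2.75e-06, log2 difference 0.96 without replicate 2) and the kinase gene Nlk at 8.09, 8.37 and 8.15 against 9.18, 9.11 and 9.09 (1.90-fold lower, adjusted p = 2.16e-05, log2 difference -0.93 without replicate 2). The part of flanking DNA in these values was not tested.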

How the data were processed

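Whole-lung RNA of 17 mice, 1 Affymetrix MOE430A array each, was used. The deposited values are log2 expression values that the authors computed with affy, an R package named in the submitters' processing notes. Neither its version nor the options appear in the sources used here. The values were used as deposited, and samples were grouped by their labels. Of 22690 probe sets, 64 controls were left out. Of the 22626 others, 20380 name 1 gene, 691 several and 1555 none. A gene (12393 in all) was represented by the probe set that was brightest on average over the 17 arrays, and other probe sets are given for some genes.

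One mean per group was fitted over all 17 arrays with limma 3.58.1 in R 4.3.3 (empirical Bayes defaults, prior degrees of freedom 3.75, and 6.58 without wild-type replicate 2). The contrast was NOS2-/- minus wild-type at 22 h after LPS, adjusted by Benjamini-Hochberg over all probe sets and called under 0.05. The fitting was tested on simulated data. Precision is limited by 3 mice per group.

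The members, 38 gene lists (17 of processes, 21 of cell types, 733 genes measured) and rules were chosen with earlier results of these data known. Leading genes were the 15 greatest differences each way among genes called with and without replicate 2 and without overlap; up to 4 called members per list and direction, 5 lost or gained calls per class, genes that the study names and called genes within 5 Mb of Nos2 could also be named. Some genes that meet these rules are not reported here. Lists are given by counts and medians, without a test. Promoter windows are from RefSeq, GRCm38.p6, matched by gene ID, and a gene with several windows was counted once if any of them held the element. Motif letters were searched on both strands. Alternatives were other normalizations, filters, array weights, fewer arrays, a replicate block, stricter thresholds and leaving out each array.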

Additional observations from a re-analysis of the deposited data

Results flagged for a closer look

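The 29 leading genes were chosen by their difference at 22 h, on arrays that also enter the interaction term. A large change from 7 h was thus favoured by the choice, and the count is a description. For 23 of them the genotype difference at 22 h differed from that at 7 h (limma interaction term, adjusted p under 0.05). Over all probe sets 2.49% passed in the higher direction and 0.544% in the lower. The count of 23 and the values listed here are with all arrays. On the log2 scale the difference between the times was 2.64 for Ogn, 2.73 for Car3, 1.80 for Adm, 2.51 for Adipoq, 2.35 for Cxcl10 and 2.17 for Ifit2. It was 2.26 for Tspan8, 1.87 for Vcam1, 1.25 for Mfap4, 1.07 for Pdpn, 2.02 for Cxcl1, 1.84 for Itga8 and 1.62 for Oasl1. Among lower genes it was -1.14 for Neat1, -2.02 for Mat1a, -1.20 for Notch4, -1.29 for Procr, -1.36 for Kcnj8 and -1.14 for Galnt2. It was -1.28 for Orm2, -1.03 for Cldn2, -0.86 for Crk and -0.88 for Porcn. The other 6 did not pass this test (Mx1, Camp, Erdr1, Il33, Igsf6 and Cebpg), of which Il33, Igsf6 and Cebpg passed without wild-type replicate 2.

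For Galnt2, 1 of the 4 wild-type saline arrays stood apart from the others, with a gap of 0.857 of the range of the group, above the limit of Dixon's test for 4 samples; chance flags about 1 in 20 groups.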

How the results depend on the processing

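The number of mice sets the limits: with 3 against 3 arrays the counts depend on the estimate of spread. Against 2180 higher and 1540 lower probe sets, the 6 arrays compared alone gave 560 and 358, the 11 arrays of 22 h alone 1328 and 973, 1 probe set per gene 1329 and 1009, an adjusted p under 0.01 1126 and 781, and a 2-fold limit 195 and 78. Array weights, which gave wild-type replicate 2 a weight of 0.0411 (0.424 to 3.83 for the others), gave 2190 and 2962. Leaving out each array gave 1338 to 2582 higher and 984 to 3485 lower; the counts moved by over 1.5 times without NOS2-/- replicate 1 (1338 and 985), replicate 2 (1419 and 1015) or replicate 3 (984 lower) and without wild-type replicate 2 (3485 lower). Quantile normalization, median subtraction, a signal filter and a robust trend kept both within 1.5 times of the main count, and no leading gene lost its call by leaving out an array. The labels do not say whether replicate numbers pair the samples. Deviations from the group means correlated at -0.0158, 0.167 and 0.201 between arrays of the same number, and from -0.192 to 0.151 between the other pairs. With so few arrays these values cannot settle it. The replicate block gave 1855 and 1354.

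Of 224 named genes, the direction reversed for Nos1 (0.08 with array weights, 0.12 without replicate 2, -0.61 to 0.12 over the arrays left out), Sirt1 (-0.22, -0.24 and -0.24 to 0.45) and Hif1a (-0.10, -0.13 and -0.13 to 0.20, and -0.03 after quantile normalization). None of these passed the test in the full fit. Other probe sets reversed Notch4 (0.06), Crk (0.05), Oxsm (-0.42 and -0.06), Odc1 (-0.22), Hif1a (-0.04), Cp (0.10), Myl4 (-0.30) and Ap2b1 (-0.05). The cause was not tested. Of 76 list counts, 27 moved by over 1.5 times without replicate 2. The shares with the same direction at 7 h, an alternative chosen after seeing the data, were 75.9% of higher and 83.7% of lower genes after quantile normalization (68.0% and 49.1% of all genes), and 59.7% to 66.0% of higher genes when an array of 7 h was left out (59.7% without NOS2-/- replicate 2, 60.2% without wild-type replicate 1).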

Other observations

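Srsf1, a splicing factor, had several probe sets that moved together; it was chosen after its values were seen. Of its 6 probe sets, 5 were lower in NOS2-/- lungs 22 h after LPS (-0.98, -1.22, -1.17, -1.02 and -1.03 on the log2 scale, limma adjusted p between 2.1e-06 and 0.0124), and the other, at -0.44, was not called with all arrays (adjusted p = 0.206) and lower without wild-type replicate 2. At 7 h they lay between -0.37 and -0.95. The 5 probe sets of Malat1, a noncoding RNA encoded next to Neat1, lay between 0.06 and 0.46 and 0 of them were called by limma at an adjusted p under 0.05 (1 at an unadjusted p under 0.05).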
